A study of Pseudotsuga menziesii with 72 samples.

Results

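In Douglas-fir needles, 24 transcripts had means within 1.5-fold of each other at 5 clock times of the day and a lower mean at 14:00. They were chosen from 180879 transcripts by their own levels, and 16040 of those met the limits on abundance. The values that chose them were the means per clock time in CPM (counts of a transcript per 1000000 counts of its library), and these means are therefore given as a description, with no test. The rule asked for a mean from 5 to under 1000 CPM and at least 1 CPM in every tree. The means at 2:00, 6:00, 10:00, 18:00 and 22:00 had to lie within 1.5-fold of each other. The 14:00 mean could be at most 0.75 of the lowest of these 5, and 14:00 had to be the lowest clock time on each day.

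The needles came from 6 trees of Pseudotsuga menziesii, 3 years old and grown in Corvallis, Oregon, from a single low-elevation Siskiyou source. The trees belong to 3 half-sib families of 2 (1A with 1B, 2A with 2B and 3A with 3B), and the labels name no treatment or genetic alteration. The growth protocol gives the number of families, but one family number stands in the labels of 1A, 1B, 2A and 2B alike, so there may be fewer. Needles of the current cohort were taken every 4 h over 2 days in September, several from 4 sides of a tree pooled into 1 sample, which gave 12 collections and 72 polyA libraries. A tree is thus the unit, sampled 12 times, so p-values measure the spread among repeated samples of 6 trees, and each clock time holds only 2 collections that all trees share, so a clock time and its pair of collections cannot be told apart.

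Needles are the main photosynthetic organs of conifers and live through a wide daily change of light, temperature and dryness of the air. In plants a circadian clock together with light and temperature sets when many genes are transcribed, and many transcripts therefore peak and trough once a day. The level of a messenger RNA at any time reflects both its synthesis and its decay. In a bulk needle sample fewer cells of a type and less RNA per cell cannot be told apart. The files pair no transcript with a gene name or a sequence, so the 24 are described by identifier, and neither their functions nor needle markers could be looked up.

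Libraries held 10.3 to 55.9 M counts (median 22.8 M), and those taken at 14:00 held 16.3 to 41.2 M. At hour 4 (6:00 on the first day) the library labelled 1B and the library labelled 2A went against their labels. Across the 16040 transcripts, tree-specific levels of the library labelled 1B correlated at −0.27 with its own tree and at 0.76 with 2A, and those of the library labelled 2A at −0.32 with its own tree and at 0.63 with 1B. The other 70 libraries lay nearest their own tree, with a correlation of at least 0.51, and these 70 were used. Clock times follow the titles and a first collection at 2:00, since a separate collection-time label disagreed with the title for 62 of 72 libraries.

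Few transcripts met the conditions together. Of the 16040, 11090 had means within 1.5-fold of each other at the 5 other clock times, and in 2799 of these 14:00 was the lowest clock time. It was also lowest on each day in 1151, and a ratio of 14:00 to the lowest other mean of at most 0.75 left 24. For all 11090 the median of this ratio was 1.08, with a 5th percentile of 0.896. The ratios of the 24 ran from 0.398 to 0.748 with a median of 0.735, and 20 of them exceeded 0.7. Just inside the limit were psme_t012699 (0.746) and psme_t002159 (0.748), and just outside it psme_t000257 (0.753) and psme_t024202 (0.755). The limit thus cuts through a continuous range and not between groups of transcripts. Mean levels of the 24 ran from 5.12 to 46.4 CPM (median 9.05), with 15 below 10 CPM and 3 above 20 CPM, and all 24 passed the filter on low counts.

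For most of the 24 the low point at 14:00 lay within a shallower daytime low. Relative to a transcript's own mean, the median over the 24 was 1.11 at 2:00, 1.13 at 6:00, 0.982 at 10:00, 0.692 at 14:00, 0.959 at 18:00 and 1.10 at 22:00. The mean of 10:00 and 18:00 was below the mean of 2:00, 6:00 and 22:00 in 23 of 24, at a median ratio of 0.870. In 13 of the 24, both 10:00 and 18:00 lay below each of the 3 night values. From there 14:00 lay lower again, at 0.709 of the mean of 10:00 and 18:00 (median, range 0.332 to 0.739). The exception was psme_t017849, at 1.18 of the night mean. The other 5 means were most alike in psme_t009701 and psme_t000151, which had a spread of 1.11-fold in each and means at 10:00 and 18:00 together of 0.952 and 0.962 of the night mean. The highest clock time was 6:00 in 9 transcripts, 2:00 in 7, 22:00 in 6 and 10:00 in 2, and it was 18:00 in none of the 24.

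**Figure D1:**
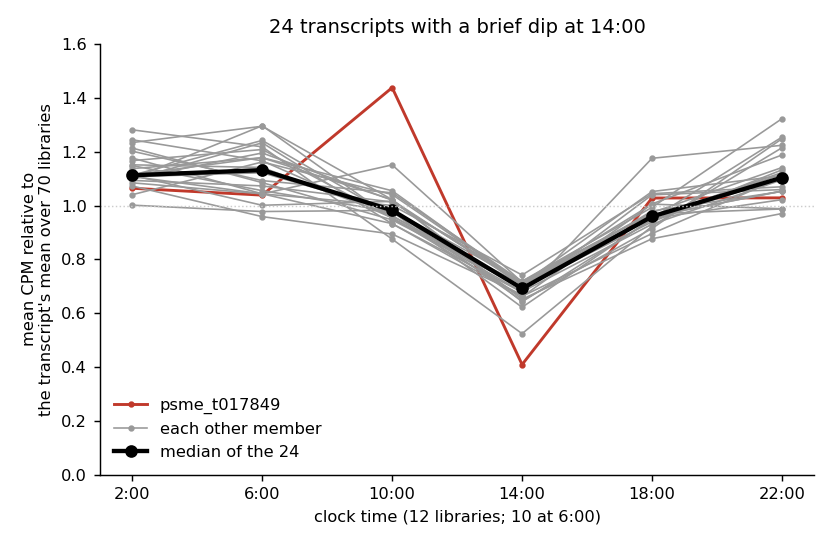
Mean CPM of each of the 24 transcripts at 6 clock times (horizontal axis), divided by the transcript's mean over 70 libraries (vertical axis, no unit). Grey lines are single transcripts, red is psme_t017849 and black is the median of the 24, which stands at 0.692 at 14:00 and at 0.959 to 1.13 at the other times.

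The lowest ratio belonged to psme_t017849, a transcript of low abundance that differed widely between trees. At 14:00 it ranged from 0.371 to 5.17 CPM with a median of 1.41, and over the other libraries from 0.448 to 22.2 CPM with a median of 3.72. These ranges overlapped, and 33 of the 58 other libraries lay below the highest 14:00 library. Its mean was highest at 10:00, at 7.76 ± 6.48 CPM (SD, n = 12), and stood at 2.21 ± 1.67 CPM 4 h later, which is 0.285 of the earlier mean. In tree 1A its mean was 4.98 CPM at 14:00 and 14.1 CPM over the other clock times, and in tree 2B the same values were 3.58 and 10.2 CPM. In tree 3B they were 0.751 and 1.20 CPM. It was the lowest of its day at 14:00 in only 6 of 12 courses, a course being 1 tree on 1 day. Counts of psme_t017849 at 14:00 ran from 9 to 153 per library, so single courses of the low trees rest on few reads.

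A higher level and a steadier course were found for psme_t030349. It stood between 10.1 and 30.8 CPM at 14:00 (median 17.5) and between 17.7 and 64.2 CPM in the other libraries (median 37.2). In every one of the 12 courses its 14:00 library was the lowest, although the highest 14:00 value, of tree 2B on day 2, exceeded some values of other trees. Its means were 43.5 ± 8.8 CPM at 2:00, 29.7 ± 6.8 at 10:00, 17.8 ± 5.6 at 14:00 and 31.3 ± 6.9 at 18:00 (SD, n = 12 each). The 10:00 and 18:00 levels were themselves 0.726 of the night level, the lowest such share among the 24. For psme_t030349 the 14:00 value was therefore the bottom of a day-long trough.

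The most abundant of the 24 was psme_t019956, whose depth was the most alike among trees. Its levels at 14:00 ran from 21.9 to 39.8 CPM (median 29.7) and elsewhere from 26.7 to 68.9 CPM (median 48.3). The ratio of 14:00 to the mean of the other clock times lay between 0.57 in tree 2A and 0.65 in tree 1A, an SD of 0.025 over 6 trees. The level was 57.7 ± 7.9 CPM at 2:00, 30.7 ± 5.2 at 14:00 and 41.6 ± 7.8 at 18:00 (SD, n = 12), and 14:00 was lowest in all 12 courses. The other abundant transcripts differed in the ratio of 18:00 to 14:00, which depends on the depth of the dip as well as on the return.

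The highest mean at 18:00 relative to 14:00 among the 4 most abundant was shared by psme_t030349 and psme_t002159, at 1.76 times. For psme_t002159 the mean was 20.5 ± 5.4 CPM at 14:00 and 37.5 ± 5.7 CPM at 22:00 (SD, n = 12). The libraries at 14:00 ranged from 11.1 to 31.3 CPM (median 21.5) and the others from 15.1 to 46.2 CPM (median 32.5). At a smaller ratio of 1.35, psme_t007356 stood at 11.2 ± 2.6 CPM at 14:00, 15.1 ± 3.3 at 18:00 and 19.5 ± 4.0 at 2:00, its highest mean (SD, n = 12). Over all 24, the mean at 18:00 was 1.34 to 2.51 times that at 14:00 (median 1.39), and the mean at 14:00 was 0.285 to 0.748 of that at 10:00 (median 0.696).

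**Figure D2:**
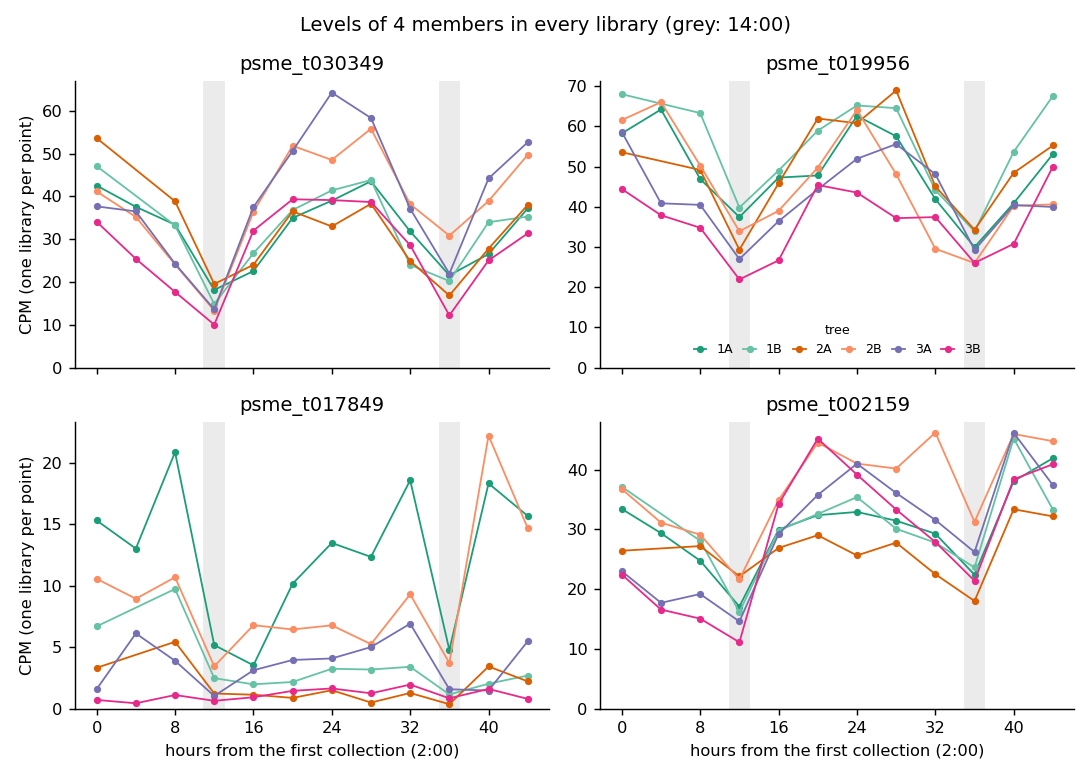
Level in CPM (vertical axis) of psme_t030349, psme_t019956, psme_t017849 and psme_t002159 in every library, against hours from the first collection at 2:00 (horizontal axis). Each point is 1 library, each line 1 tree, and grey bands mark the 14:00 collections at hours 12 and 36. For psme_t030349, psme_t019956 and psme_t002159 every tree is lowest of its day in the grey bands, and for psme_t017849 this holds in 6 of 12 courses.

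The remaining transcripts of lowest ratio were low in abundance and less even among courses. The level of psme_t006968 was 2.11 to 7.55 CPM at 14:00 (median 3.64) and 1.95 to 15.7 CPM elsewhere (median 7.03), and 14:00 was the lowest of the day in 7 of 12 courses. That of psme_t001184 was 1.26 to 4.57 CPM at 14:00 (median 3.36) and 2.63 to 8.47 CPM elsewhere (median 5.68), with 14:00 lowest in 10 of 12 courses. The level of psme_t015825 was 1.68 to 5.46 CPM at 14:00 (median 3.52) and 2.21 to 13.0 CPM elsewhere (median 5.13), also lowest in 10 of 12 courses. The ranges overlapped in all 3, and of the 58 other libraries 35, 20 and 32 lay below the highest 14:00 library of psme_t006968, psme_t001184 and psme_t015825.

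The course outside 14:00 also differed among the 24. For psme_t000151 the 5 other means lay within 1.11-fold of each other, from 12.1 ± 3.1 CPM at 6:00 (n = 10) to 13.5 ± 3.6 at 2:00 (n = 12), against 8.59 ± 1.95 CPM at 14:00 (SD, n = 12). The transcript at the middle ratio, psme_t008530, stood at 8.32 ± 1.94 CPM at 6:00 (n = 10), 4.91 ± 1.15 at 14:00 and 6.68 ± 1.46 at 18:00 (SD, n = 12). It declined from 6:00 through 10:00 (7.10 ± 2.03 CPM) to 14:00. In psme_t012699 the mean was instead highest just before the dip, at 14.5 ± 2.6 CPM at 10:00, and 8.99 ± 2.11 CPM at 14:00. Its 14:00 libraries ran from 5.22 to 12.1 CPM, and 7 of the 12 lay below all 58 other libraries, of which the lowest held 9.63 CPM.

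The courses of single trees are given next as a description, since the rule used the means of these same libraries and asked that 14:00 be lowest on each day. Taking the median relative level of the 24 transcripts in a library, 14:00 was the lowest value in 12 of 12 courses, from 0.427 (tree 3B, day 1) to 0.844 (tree 2B, day 2). The ratio of that value to the lowest other library of its course was 0.658 to 0.870. Single transcripts varied more. In 239 of 288 combinations of transcript and course 14:00 was lowest, and this held in at least 10 of 12 courses for 20 transcripts. In all 12 it held for psme_t030349, psme_t002921, psme_t019956, psme_t012699 and psme_t002159, and in the fewest, 4 of 12, for psme_t011494. With both days averaged, 14:00 lay below the mean of the other clock times for 24 of 24 transcripts in each of the 6 trees, and it was the lowest of all 6 clock times in every tree for 17. It was lowest for 24 of 24 in trees 1A and 3B, for 22 in each of 1B, 2B and 3A, and for 19 in tree 2A.

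**Figure D3:**
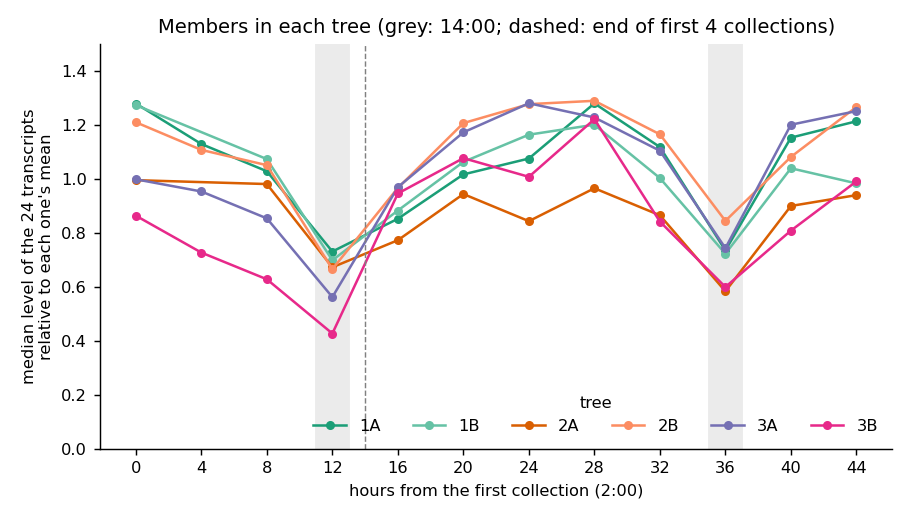
Median level of the 24 transcripts in each library, each relative to its own mean (vertical axis, no unit), against hours from the first collection (horizontal axis), with 1 line per tree. Grey bands mark 14:00, where the median is lowest in all 12 courses (0.427 to 0.844), and the dashed line marks the end of the first 4 collections, in which tree 3B lies below the others.

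The depth of the dip varied between trees without a difference that passed the test. The ratio of 14:00 to the mean of the other clock times had a median over the 24 of 0.643 in 1A and 0.650 in 1B, of 0.712 for tree 2A and 0.639 for tree 2B, and of 0.642 and 0.548 for trees 3A and 3B. Tree 3B was thus the deepest and 2A the shallowest by this measure over all collections. The order changed when the first 4 and the last 8 collections were read apart. In the first 4, tree 3B (0.588) was less deep than 1B (0.571) and 2B (0.585), and 2A (0.687) was still the shallowest. In the last 8, tree 3B (0.599) was still the deepest, but 1B (0.702) was shallower than 2A (0.669). The 0.548 of tree 3B lay below both of its own values, as it mixes collections of unlike level. To ask whether depth differed between trees, an interaction of tree and 14:00 was fitted in edgeR over all 52820 transcripts tested, and 0 of 24 passed at an adjusted p under 0.05. Of all transcripts tested 0.00947% passed, and of those in the abundance range 0.00623%, and 1 of the 24, psme_t011206, had an unadjusted p under 0.05 and an adjusted p of 1 in edgeR. With DESeq2 the count was also 0 of 24, with 1 at an unadjusted p under 0.05. Each tree has only 2 libraries at 14:00, and the rule had chosen the 24 on the means of these same trees. The result therefore does not show that the depths were equal.

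The widest spread of depth was that of psme_t006968, from 0.40 in tree 3B to 0.94 in tree 1B (SD 0.197 over 6 trees). In tree 1B it averaged 3.37 CPM at 14:00 and 3.59 CPM at the other times, so the means there nearly coincided. These averages mix collections of unlike level. On day 1 the 1B values were 7.88 CPM at 2:00, 4.76 at 10:00 and 4.64 at 14:00. In the last 8 collections 1B held 2.11 CPM at 14:00 and 1.95 to 3.64 CPM otherwise. In tree 3B it averaged 3.42 and 8.54 CPM. A ratio near 1 was also seen for psme_t011494 in tree 2A, at 0.97, and for psme_t002859 there, at 0.92. Both were singled out after their values were seen, and both ratios average days of unlike level. In 2A psme_t002859 held 8.61 CPM at 14:00 on day 1, against 9.45 at 2:00 and 12.0 at 10:00. In the last 8 collections it held 4.54 CPM at 14:00 and 4.65 to 7.41 CPM otherwise. For psme_t011494 the day 1 values were 6.77 CPM at 14:00, 10.4 at 2:00 and 7.58 at 10:00. In the last 8 its 4.70 CPM at 14:00 lay among the others (3.96 to 8.53 CPM). None of these differences in depth between trees passed the interaction test (adjusted p of 1 in edgeR for each).

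**Figure D4:**
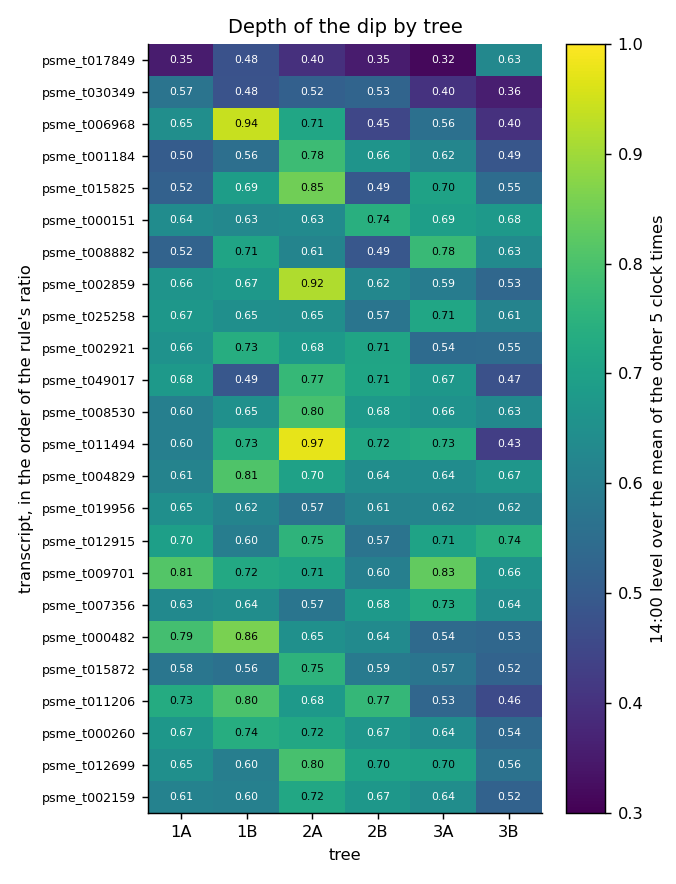
Ratio of the 14:00 mean to the mean of the other 5 clock times (colour scale and printed value, no unit) for the 24 transcripts (rows, in the order of the ratio that chose them) in the 6 trees (columns). Every value is below 1, and psme_t019956 is the most even row while psme_t006968 is the least even.

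Mean level differed between trees for most of the 24, as for most transcripts. In edgeR's test of the 6 trees 22 of 24 passed, where 91.6% of all transcripts tested and 95.5% of those in the abundance range did. The share among the 24 is near that background. The pair that did not pass was psme_t049017 (adjusted p = 0.338) and psme_t000482 (adjusted p = 0.168), named after their values were seen. The smallest p-values were those of psme_t015872 and psme_t017849. The level of psme_t015872 was 5.73 ± 2.44 CPM in 2B and 5.81 ± 2.29 in 1A, and 13.5 ± 3.8 CPM in 3A (SD, n = 12 each; edgeR adjusted p = 1.82e-18). The level of psme_t017849 was 1.12 ± 0.47 CPM in 3B and 12.6 ± 5.7 CPM in 1A (SD, n = 12 each; adjusted p = 3.43e-18), the widest range of the 24 at 11.2-fold. The median range between the lowest and highest tree was 1.52-fold, and the lowest tree was 3B in 12 transcripts and 2A in 9.

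Of the 24 transcripts, 6 differed in level between the days, where 32.3% of all transcripts tested and 52.7% of those in the abundance range did. At an adjusted p under 0.05 in edgeR 5 of 24 were higher on day 2 and 1 was lower, where 15.3% of all transcripts tested were higher and 17.0% lower. In the abundance range these shares were 29.0% and 23.8%. The median log2 change from day 1 to day 2 was 0.04 over the 24 and −0.02 over all transcripts tested. The rise of psme_t002159 had the smallest p, from 27.2 ± 8.3 CPM (SD, n = 34) on day 1 to 33.9 ± 7.7 CPM (n = 36) on day 2. It was higher in 27 of 34 pairs of the same tree and clock time, with a log2 change of 0.28 ± 0.05 (SE, adjusted p = 1.92e-06, edgeR). Next was psme_t012699, from 11.5 ± 2.7 to 13.6 ± 2.3 CPM, higher in 31 of 34 pairs (log2 change 0.19 ± 0.04 SE, adjusted p = 5.5e-05, edgeR). The other rises were those of psme_t009701, psme_t004829 and psme_t011494, with log2 changes of 0.20, 0.14 and 0.60. The lone fall was that of psme_t015872, lower in 23 of 34 pairs (log2 change −0.28 ± 0.07 SE, adjusted p = 0.00199, edgeR). Without tree 2A, 10 of 24 passed instead of 6. The fall of psme_t015872 and the rises of psme_t009701 and psme_t011494 did not pass when each tree had its own level in the first 4 and the last 8 collections (edgeR adjusted p = 0.217, 0.983 and 0.354). In that fit psme_t009701 had a log2 change of 0.01 ± 0.07 (SE). They did not pass in the last 8 collections alone either (adjusted p = 0.192, 0.957 and 0.284). The rises of psme_t002159, psme_t012699 and psme_t004829 passed in both, and that of psme_t004829 did not pass without tree 3B (adjusted p = 0.0681).

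No difference in the size of the dip between the days passed the test. The rule had used both days and asked that 14:00 be lowest on each, which bounds how far the depths could differ. The result is therefore not read as equal depth on the 2 days. The median ratio of 14:00 to the mean of the other clock times was 0.626 on day 1 and 0.661 on day 2, and 15 of 24 transcripts were deeper on day 1. In the interaction of day and 14:00, 0 of 24 passed in edgeR and 0 of 24 in DESeq2, where 0.0151% of all transcripts tested and 0.0499% of those in the abundance range passed in edgeR. By either tool 3 of 24 had an unadjusted p under 0.05. With a level for each tree in the first 4 and the last 8 collections, still 0 of 24 passed in edgeR, but 6 had an unadjusted p under 0.05, the smallest adjusted p was 0.0761, and 576 of the 52820 transcripts passed instead of 8. The estimated log2 differences, day 2 minus day 1, ran from −0.51 to 0.40 with a median of 0.10. The smallest p was that of psme_t011206, at 0.40 ± 0.14 (SE, adjusted p = 0.512, edgeR). For psme_t006968 the estimate was −0.51 ± 0.29 (adjusted p = 0.826), so a difference of this size did not pass here.

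The first 4 collections were taken apart from the last 8, since an earlier look at these data had found them to differ by tree, and 14:00 was low in both. Tree 3B had a median relative level of 0.678 in the first 4 collections and 0.968 in the last 8, and tree 3A 0.904 and 1.19. In the other trees the corresponding values lay within 0.981 to 1.08 and 0.883 to 1.19. Trimmed-mean (TMM) factors, which scale for composition, were at most 0.852 in tree 3B in the first 4 collections and 0.876 to 1.08 in the last 8. On the TMM scale the 3B levels were 0.882 and 0.980. Their part in the tree and day differences was not tested beyond a fit that gave each tree its own level in either set of collections. In that fit 4 of 24 differed between days. These were psme_t002159, psme_t012699, psme_t004829 and a transcript that had not passed in the main fit. The ratio of 14:00 to the lowest other mean was 0.690 in the first 4 collections alone (against 2:00, 6:00 and 10:00) and 0.770 in the last 8 alone.

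Scaling factors at 14:00 lay within the range of the other clock times. TMM factors at 14:00 ran from 0.804 to 1.15 with a median of 1.00, and the medians of the other clock times lay from 0.959 to 1.04. The median relative level of all 16040 transcripts in range was 0.970 at 14:00 and 0.950 to 0.994 at the others, each taken as the median library of its clock time. On log2(CPM + 0.5) the 24 were lower at 14:00 by a median of −0.58, and by −0.55 with TMM scaling, while the 16040 moved by −0.01 and 0.02. With TMM scaling 14:00 was still the lowest clock time for 24 of 24, but only 15 kept a ratio of at most 0.75. In the test of 14:00 against the other 5 clock times 16.8% of all transcripts tested were lower at an adjusted p under 0.05 in edgeR. Of the 24, all but psme_t011494 were (23), which follows from their choice and is not read further.

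The dip was also read in libraries that had no part in a choice, although the form of the rule was known from all of them. Chosen on day 1 alone, 45 transcripts met the rule, and on day 2 14:00 was the lowest clock time in 40 of them, against 18.7% of the 16040. Chosen on day 2 alone, 20 met it, and on day 1 14:00 was lowest in 17, against 17.2%. The dips were shallower where they were read than where they were chosen, with median ratios of 0.841 against 0.719 and of 0.826 against 0.724. The limit of 0.75 was met by only 5 of the 45 on day 2 and by 6 of the 20 on day 1. When each tree was left out of the choice in turn, 19 to 31 transcripts met the rule. In the tree left out 14:00 was lowest for 23 of 25 (1A), 19 of 25 (1B), 21 of 31 (2A), 26 of 27 (2B), 18 of 19 (3A) and 19 of 19 (3B). The shares over the 16040 were 12.7% to 28.8%. In the tree left out, 3 of 25 (1A), 5 of 25 (1B) and 3 of 31 (2A) had a ratio of at most 0.75. So did 6 of 27 (2B), 10 of 19 (3A) and 6 of 19 (3B). Unlike the lists, the 16040 were not limited to transcripts with similar means at the other clock times. Of the 11090 with such means, 14:00 was lowest in 2799 over both days together. Only 13 of the 45 and 8 of the 20 were among the 24. Such lists overlap among themselves and with the 24, and the trees share their collections. These counts therefore carry no test and are given as a description.

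Brief dips at other clock times were found by the same rule with another hour in place of 14:00. It gave 108 transcripts at 10:00, 34 at 6:00, 30 at 18:00, 24 at 14:00 and 0 at 2:00 and 22:00. The mirrored rule, for a mean at least as far above the others, gave 72 transcripts at 14:00, 58 at 22:00, 16 at 10:00, 7 at 6:00, 7 at 2:00 and 6 at 18:00. At 14:00 brief peaks were thus the more numerous by count, and at 10:00 brief dips were. These counts depend on the threshold and on where the 4-hourly collections fall, and no test was made of their differences.

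**Figure D5:**
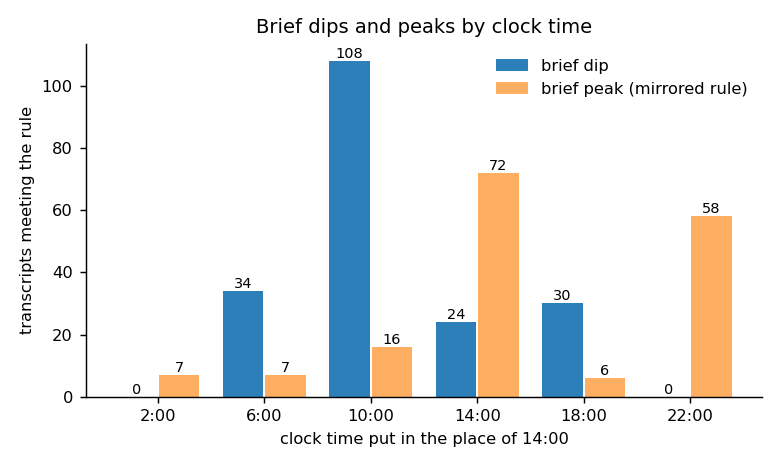
Number of transcripts (vertical axis) that met the rule with each clock time (horizontal axis) in the place of 14:00. Blue bars are brief dips (24 at 14:00, 108 at 10:00) and orange bars brief peaks by the mirrored rule (72 at 14:00).

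Beyond the shared dip, some of the 24 varied together from library to library. After removal of the means of trees and of collections from log2(CPM + 0.5), Pearson correlations over 70 libraries had a median of 0.31 over the 276 pairs and a range from −0.39 to 0.80. Their mean was 0.28, against 0.09 over all pairs of the 16040 transcripts. The points share library depth and the scaling, and no test was made. A shift of single trees between the first 4 and the last 8 collections was not removed either. The median relative level of the 24 was 0.678 and 0.968 in tree 3B, and 0.904 and 1.19 in tree 3A. The part of this shift in the correlations was not tested. The closest pairs were psme_t002859 with psme_t002921 and psme_t008530 with psme_t002159, both at 0.80. In all 74 pairs exceeded 0.5 and 58 were below 0. The most abundant transcript, psme_t019956, had a mean correlation of 0.02 with the others, and psme_t049017 and psme_t025258 had means of −0.15 and −0.14. The 24 were thus not a single group by this measure.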

How the data were processed

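PolyA RNA of needles was sequenced as strand-specific libraries, per the labels' protocols. The authors deposited a table of raw read counts per transcript for 72 libraries. CASAVA 1.8, Bowtie2 2.2.3 and DESeq are named in the submitters' processing notes. No aligner role, counter or transcript reference is stated in the labels. A second, normalized table was not used.

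The members and lists were chosen with earlier results of these data known. CPM were computed from the deposited counts and column sums, and the rule was applied in Python 3.11.15 to 70 libraries. Tests used edgeR 4.0.16 in R 4.3.3 (quasi-likelihood F tests, trended dispersion, TMM scaling, filterByExpr with a minimum count of 10), with Benjamini-Hochberg adjustment over 52820 transcripts and a threshold of 0.05. The fits held tree (as replicate block), day and clock time. The same tree was sampled at every collection, which is where the pairing comes from. DESeq2 1.42.0 was an alternative. The fitting code was tested on simulated data.

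Named transcripts are the 6 of smallest ratio, the 4 of highest mean CPM, the middle one, the last 2 within and the first 2 beyond the limit, up to 2 of smallest p per test, and those most and least even among trees. Others, namely psme_t049017, psme_t000482, psme_t011494, psme_t002859, psme_t002921, psme_t011206, psme_t009701, psme_t004829 and psme_t025258, were named after their values were seen. The lowest count of any of the 24 in a library was 9 and the median 190.5, so counting error is largest for the least abundant.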

Additional observations from a re-analysis of the deposited data

Results flagged for a closer look

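Outlying trees were looked for in 36 groups of 6 values, of which chance flags about 1 in 20. The group at hour 4 held fewer values, since 1B and 2A were left out. In 3 of the 36 groups 1 tree lay far from the other 5. At hour 28 (6:00 on day 2) the median relative level of the 24 transcripts was 0.965 in tree 2A and 1.20 to 1.29 in the others. The mean level of psme_t006968 was 3.62 CPM in tree 1B and 6.57 to 7.71 CPM in the others. The ratio of 14:00 to the mean of the other clock times of psme_t015872 was 0.753 in tree 2A and 0.522 to 0.585 in the others.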

How the results depend on the processing

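The number of transcripts that met the rule depended most on its threshold. It was 4 at a ratio of at most 0.7 and 85 at 0.8, and 14 with the other means within 1.3-fold. It was 17 with TMM scaling, 15 with DESeq2 size factors, 22 with all 72 libraries and 24 without the condition on each day. With 1 tree left out it was 19 to 31, of which 14 to 21 were among the 24. The median ratio of the 24 was 0.721 to 0.744 with 1 tree left out and 0.690 in the first 4 collections alone. Lists chosen anew without a day or a tree, which only partly hold the 24, had median ratios of 0.841 (read on day 2) and 0.826 (read on day 1), and in the tree left out of 0.838 (1A), 0.875 (1B), 0.934 (2A), 0.831 (2B), 0.732 (3A) and 0.825 (3B). With 1 tree left out 20 to 22 of the 24 differed between trees and 6 to 10 between days (10 without 2A), while 0 differed in dip between trees and 0 between days in each such fit. Without the replicate block 4 of 24 differed between days and 0 in dip between days. The same counts came when each tree had its own level in the first 4 and last 8 collections, though not all for the same transcripts. The causes were not tested. Of 156 values of single transcripts under the alternatives, 151 moved by less than 1 SD or, for a change between days, still passed, and 0 changed direction. The SD was that of the transcript's ratio over the 6 trees, which is a wide limit. By it psme_t006968 counted as unmoved at 0.931 in the first 4 collections alone, against 0.654 in the main setting. Changes between days were included for psme_t002159 and psme_t012699 only, and not for psme_t009701, psme_t011494 or psme_t015872. Each clock time rests on 2 collections and a tree has 2 libraries at 14:00, which limits both interaction tests.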
